A study of Canis lupus familiaris with 34 samples.

Results

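The genes of proteoglycans, hyaluronan and glycosaminoglycan synthesis were followed in the mitral valves of 34 Cavalier King Charles Spaniels. The 50 members are a list of gene symbols, chosen by function. Each was matched to the feature with that symbol in the deposited count table, and the canine RefSeq feature was used where both a canine and a human-derived feature are listed. All 50 had a feature among 23768 in all, and 47 had a sum of at least 100 counts over the dogs and were tested, among 19568 features tested. The members not tested were the lecticans NCAN and BCAN and the link protein HAPLN2, which are known from nervous tissue. NCAN was at 0 counts in 29 of 34 dogs, BCAN in 25 and HAPLN2 in all 34.

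Myxomatous mitral valve disease (MMVD) is a degenerative disease of the mitral valve that is common in this breed and can lead to congestive heart failure (CHF). The dogs were privately owned, about 10 years old and sampled at euthanasia. The 10y-noCHF group held 10 females and 9 males without CHF, and, per the study, almost all of its dogs had MMVD that had not reached failure, so it is not a group of healthy valves. The 10y-MMVD-CHF group held 6 females and 9 males with CHF caused by MMVD. The titles label the groups ctrl and case, and give no allele or treatment for either. Per the study, the response to diuretics was part of the diagnosis of CHF, and the dogs were sedated before euthanasia with pentobarbital. Poly-A RNA of mitral valve tissue was sequenced, so cells of all kinds in the tissue contribute, and fewer cells of a type and less RNA per cell cannot be told apart. Disease stage, age and weight are not paired with the dogs in the labels.

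Proteoglycans are core proteins that carry sulfated sugar chains, the glycosaminoglycans. In the spongy middle layer of the mitral valve, large aggregates of versican and hyaluronan hold water, while small leucine-rich proteoglycans such as decorin and lumican bind collagen fibrils in the fibrous layer. Hyaluronan is a chain without a core protein that is spun out at the cell membrane by hyaluronan synthases, bound by link proteins and CD44, and cut by hyaluronidases. Accumulation of glycosaminoglycans is the histological feature that gives myxomatous disease its name, so the question is whether the transcripts of these genes differ between dogs with and without CHF.

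Counts on the 50 members made up 1.13 to 2.49% of all counts in 10y-noCHF, with a median of 1.83%, and 1.04 to 2.13% in 10y-MMVD-CHF, with a median of 1.83%. The groups overlapped over most of this range. Total counts per dog ranged from 46185256 to 82361245. Values below are CPM, the counts of a gene divided by the total of the dog after TMM scaling and multiplied by a fixed constant. All 9 markers of valve interstitial cells were detected, with summed levels of 10493 to 37282 CPM in 10y-noCHF and 12895 to 44030.5 CPM in 10y-MMVD-CHF. Cardiomyocyte markers varied far more between dogs, and the members are set against them below.

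The features differ in kind, which limits what can be compared between genes. Of the 50 members, 7 have a canine RefSeq feature made of exons, and the other 43 have a human XenoRefSeq alignment. Of these alignments, 42 cover their whole span with the introns. The span is that of the alignment, and some alignments cover only part of the gene, such as those of CEMIP, HAS2, HAS3, SDC4 and CSGALNACT2. Levels per length can therefore be set side by side only within the first kind. Per kilobase of exon, BGN (biglycan) had 624 to 2471 CPM over the 34 dogs, with a median of 1568, and DCN (decorin) had 871 to 2781, with a median of 1535. These small proteoglycans could not be ranked against each other, since BGN was above DCN in 14 of 34 dogs. The hyaluronan receptor CD44 came next, at 51.6 to 149 CPM per kilobase, with no dog near the range of BGN or DCN. ACAN (aggrecan) had 9.17 to 83.9, XYLT1 2.42 to 11.2 and XYLT2 2.19 to 6.12 CPM per kilobase, ranges that overlap from each gene to the next. By deposited length over all members, the 10 highest were BGN, DCN, LUM, PRELP, FMOD, CD44, ACAN, PODN, PRG4 and VCAN, an order that mixes both kinds of feature.

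No member differed between 10y-MMVD-CHF and 10y-noCHF at an FDR below 0.1 with edgeR's quasi-likelihood test with sex as a fixed effect, against 0.118% of all features tested. DESeq2, which called 0.327% of all features, and limma voom, which called 0.128%, also called no member. At an unadjusted p below 0.05 there were 2 members, GPC3 and CEMIP, or 4.26% of the 47, beside 6.31% of all features. Both were lower in 10y-MMVD-CHF, a direction and threshold that 3.51% of all features met. In all, 28 members had a log2 fold change below 0 and 19 above 0, so 59.6% were lower, beside 47.4% of all features. Many members varied together across dogs, as described below, so the 28 are not separate observations. The median log2 fold change of the members was -0.037, and that of all features was 0.0076. The 95% intervals bound the size of a difference. They lay within a log2 fold change of 0.5 in either direction for 34 of the 47 members and within 1 for 45.

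**Figure D1:**
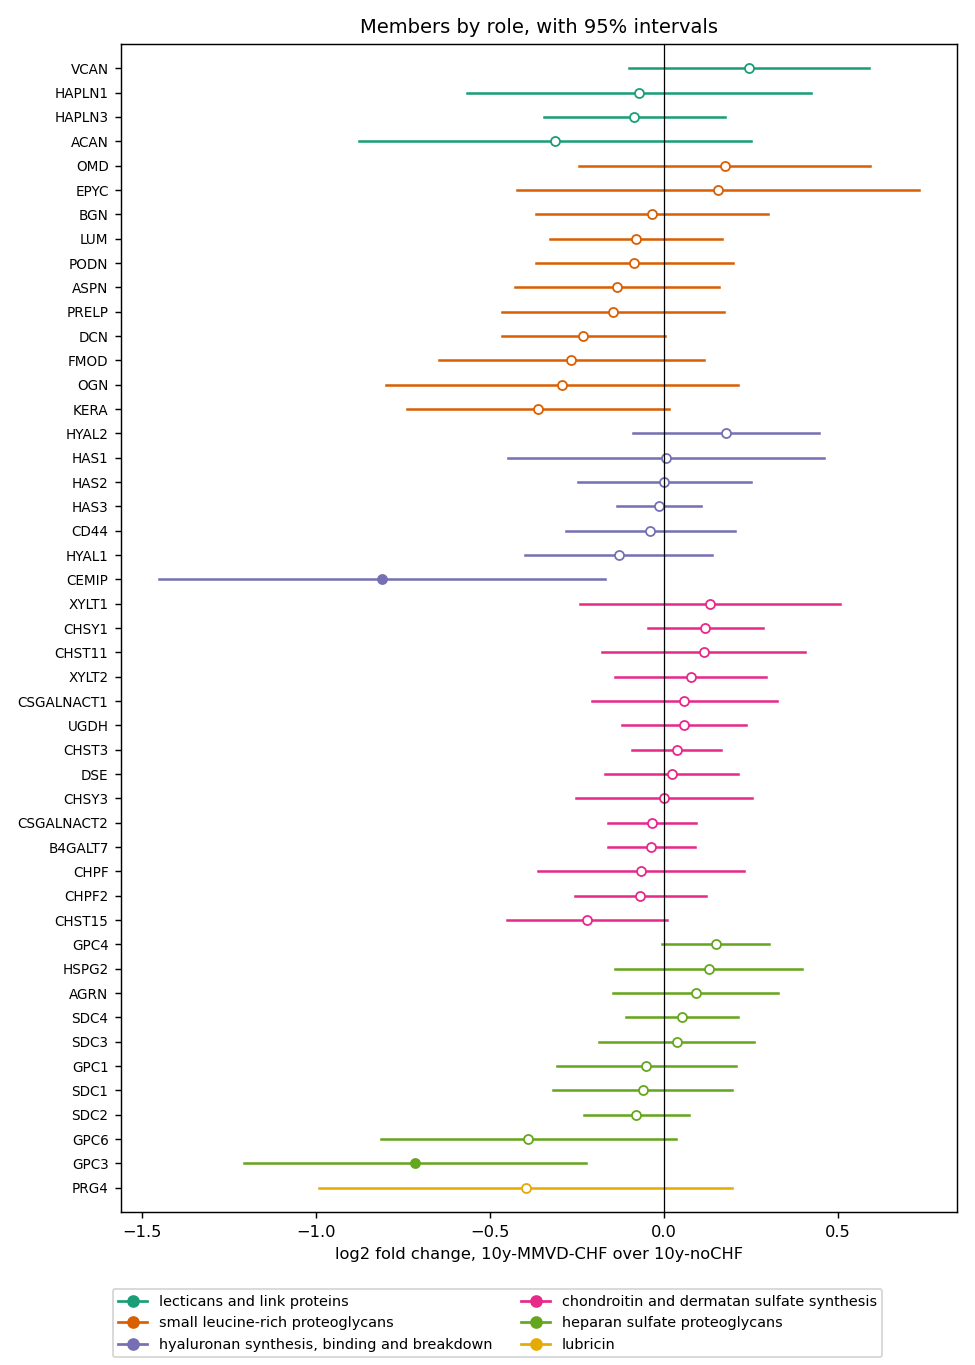
Log2 fold change of the 47 tested members (x axis, 10y-MMVD-CHF over 10y-noCHF, edgeR with sex as a fixed effect), grouped and coloured by role, with lines for the 95% intervals. Filled points are the 2 members with an unadjusted p below 0.05, GPC3 and CEMIP, both to the left of 0, and neither passed the FDR threshold of 0.1.

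The large aggregating proteoglycans and their link proteins gave 4 tested members, 1 higher and 3 lower in 10y-MMVD-CHF, and none with an unadjusted p below 0.05. VCAN (versican), the main hyaluronan-binding proteoglycan of the valve, had 1001 to 4309 CPM in 10y-noCHF, with a median of 2502, and 1618 to 5088 CPM in 10y-MMVD-CHF, with a median of 2641 (log2 fold change 0.24, standard error 0.17, edgeR FDR = 0.866). The groups overlapped, and the VCAN ratio of 1.18-fold (95% interval 0.932 to 1.5) allows no difference as well as a moderate increase. ACAN, the aggregating proteoglycan of cartilage, had 80.1 to 597 CPM in 10y-noCHF, with a median of 196, and 65.3 to 486 CPM in 10y-MMVD-CHF, with a median of 215 (log2 fold change -0.31, standard error 0.277, edgeR FDR = 0.915). Its levels spread 9.15-fold from the lowest to the highest dog, and the medians of the groups lay in the opposite order to the fitted change. The link protein HAPLN1, which locks versican or aggrecan onto hyaluronan, spread 10.1-fold, from 6.33 CPM in a 10y-MMVD-CHF dog to 64 CPM in a 10y-noCHF dog, with medians of 31.2 and 31.5 CPM in 10y-noCHF and 10y-MMVD-CHF. HAPLN3, a related link protein, had medians of 20.6 and 20.7 CPM.

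Of the 11 small leucine-rich proteoglycans, 9 had a log2 fold change below 0, beside 47.4% of all features. The other 2, OMD and EPYC, were above 0, and none of the 11 had an unadjusted p below 0.05. Several of them varied together across dogs, as described below, so the 9 are not separate observations. The median log2 fold change of the 11 was -0.14. DCN, which binds collagen fibrils and carries a single chain, had 1526 to 3977 CPM in 10y-noCHF, with a median of 2521, and 1245 to 2938 CPM in 10y-MMVD-CHF, with a median of 2149 (log2 fold change -0.23, standard error 0.115, edgeR FDR = 0.786). The ranges overlapped, but 12 of the 15 10y-MMVD-CHF dogs were under the 10y-noCHF median. The unadjusted edgeR p of DCN was 0.0511, and 0.0479 on its human-derived feature. Over 12 other settings on the canine feature, the unadjusted p was below 0.05 in 3, and it was 0.121 with limma voom. BGN, its close relative on the X chromosome, had 925 to 3663 CPM in 10y-noCHF, with a median of 2481, and 1295 to 3168 CPM in 10y-MMVD-CHF, with a median of 2239 (log2 fold change -0.035, standard error 0.164, edgeR FDR = 0.988). The BGN ratio was 0.976-fold (95% interval 0.775 to 1.23).

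LUM (lumican), a fibril-binding keratan sulfate proteoglycan, had 2188 to 5395 CPM in 10y-noCHF, with a median of 3809, and 2111 to 4519 CPM in 10y-MMVD-CHF, with a median of 3585 (log2 fold change -0.081, standard error 0.122, edgeR FDR = 0.956). The groups shared the range from 2188 to 4519 CPM, and only 10y-noCHF dogs were above it. FMOD (fibromodulin), of the same class, had 501 to 2042 CPM in 10y-noCHF, with a median of 1173, and 391 to 1598 CPM in 10y-MMVD-CHF, with a median of 926 (log2 fold change -0.27, standard error 0.187, edgeR FDR = 0.866). A total of 11 of 15 10y-MMVD-CHF dogs were below the 10y-noCHF median of FMOD. PRELP, a proline- and arginine-rich relative that anchors basement membranes to collagen, had 963 to 3107 CPM in 10y-noCHF, with a median of 1831, and 919.9 to 3026 CPM in 10y-MMVD-CHF, with a median of 1705 (log2 fold change -0.15, standard error 0.157, edgeR FDR = 0.937). Levels of PODN (podocan) were 194 to 622 CPM in 10y-noCHF, with a median of 421, and 207 to 556 CPM in 10y-MMVD-CHF, with a median of 401 (log2 fold change -0.086, standard error 0.14, edgeR FDR = 0.961). KERA (keratocan), known from the cornea, had 88.8 to 399 CPM in 10y-noCHF, with a median of 178, and 82.6 to 299 CPM in 10y-MMVD-CHF, with a median of 133. Of the 15 dogs with CHF, 11 had less KERA than the median dog without CHF (unadjusted edgeR p = 0.0581, FDR = 0.797). ASPN (asporin) and OGN (osteoglycin) had log2 fold changes of -0.14 and -0.29, and OMD (osteomodulin) had 0.17, with edgeR FDR values of 0.937, 0.908 and 0.945. These 3 lie wholly within the feature of another gene, CENPP, and reads were counted without strand, so reads in the shared bases count for both. The 1408870 counts of CENPP therefore include the 26283 of OMD, the 189287 of OGN and the 690460 of ASPN. How many of the reads on these 3 come from CENPP transcripts was not tested.

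Among the 7 genes of hyaluronan, 3 had a log2 fold change above 0 and 4 below 0. HAS2, the main hyaluronan synthase of the developing heart, had 15.4 to 33.6 CPM in 10y-noCHF, with a median of 25.4, and 12.5 to 40.7 CPM in 10y-MMVD-CHF, with a median of 24. The HAS2 ratio was 1-fold (95% interval 0.841 to 1.19), with an edgeR FDR of 1, so an increase above 1.19-fold lies outside the interval. The other synthases, HAS1 and HAS3, had medians of 3.14 and 13.8 CPM in 10y-noCHF and 2.92 and 14.2 CPM in 10y-MMVD-CHF. HAS3 varied least of all tested members, 1.42-fold from the lowest to the highest dog. Its feature shares 5.4% of its bases with those of CHTF8 and DERPC, which hold 81572 counts each, against 29473 for HAS3. The part of their reads in the counts of HAS3 was not tested. The HAS1 feature lies wholly within features named CTU1, ZNF534 and ZNF702P, and its own counts were 34 to 425 per dog. CD44, the hyaluronan receptor of the cell surface, had 92.2 to 266 CPM in 10y-noCHF, with a median of 201, and 111 to 266 CPM in 10y-MMVD-CHF, with a median of 184 (log2 fold change -0.039, standard error 0.12, edgeR FDR = 0.983).

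CEMIP, a protein needed for hyaluronan breakdown outside the lysosome, had 7.03 to 67.1 CPM in 10y-noCHF, with a median of 42.3, and 5.79 to 51.7 CPM in 10y-MMVD-CHF, with a median of 17.5, on a feature at chromosome 3, 57204385 to 57264475 (canFam4). The RefSeq gene runs from 57204384 to 57343326, so this feature covers only part of it. The groups overlapped over most of the range of CPM, but 14 of 15 10y-MMVD-CHF dogs were below the 10y-noCHF median. The fitted ratio was 0.57-fold (95% interval 0.366 to 0.889) (log2 fold change -0.81, standard error 0.315, edgeR FDR = 0.63, unadjusted p = 0.0146), which failed the correction for all features. CEMIP also varied most of all members within status and sex, with an SD of 1.02 on the log2 scale. With each of the 34 dogs left out in turn, the log2 fold change of CEMIP ranged from -0.99 to -0.71, and the unadjusted p was below 0.05 in all 34 fits. The hyaluronidases HYAL1 and HYAL2, which cut hyaluronan in the lysosome and at the cell surface, had log2 fold changes of -0.13 and 0.18 with edgeR FDR values of 0.93 and 0.88.

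**Figure D2:**
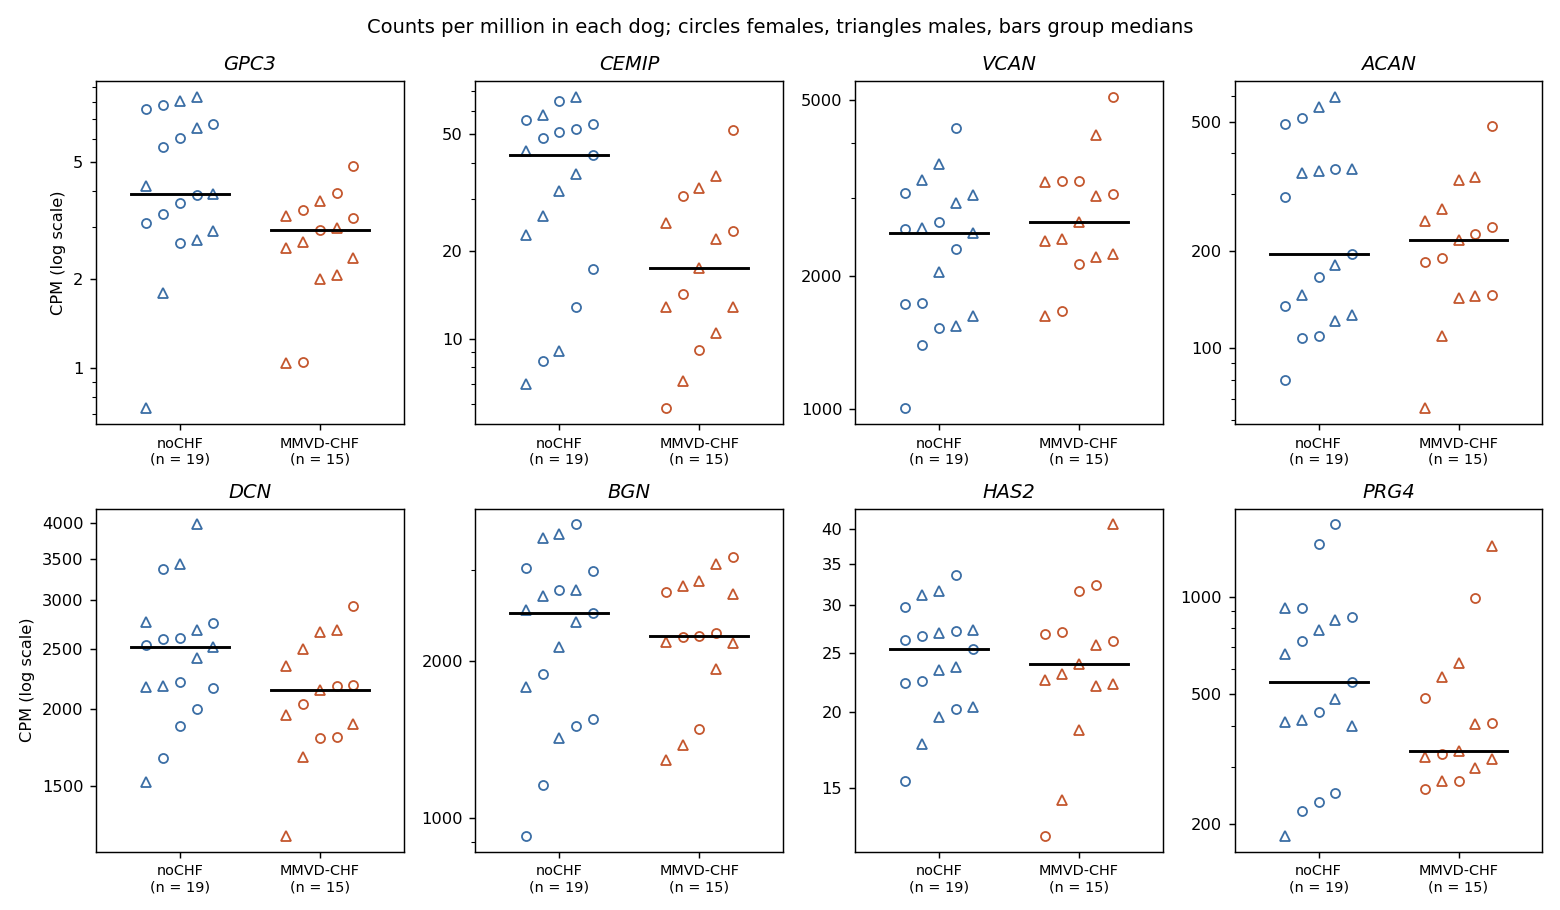
CPM in each dog (y axis, log scale) of GPC3, CEMIP, VCAN, ACAN, DCN, BGN, HAS2 and PRG4 in 10y-noCHF (19 dogs, blue) and 10y-MMVD-CHF (15 dogs, orange). Circles are females, triangles males and bars group medians. The groups overlap for all 8 genes, and the 10y-MMVD-CHF dogs of GPC3 and CEMIP gather below the 10y-noCHF median, in 13 and 14 of 15 dogs.

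The 14 genes that make chondroitin and dermatan sulfate showed the narrowest changes. Fold changes ran from -0.22 to 0.13 on the log2 scale, with 8 members higher, 6 lower, none with an unadjusted p below 0.05 and a median of 0.029. The chain polymerases CHSY1 and CHSY3 had ratios of 1.09-fold (95% interval 0.968 to 1.22) and 0.999-fold (95% interval 0.838 to 1.19). CHST15, which adds a further sulfate to a sulfated chondroitin chain, had 14 to 31.8 CPM in 10y-noCHF, with a median of 21.7, and 12.2 to 27.9 CPM in 10y-MMVD-CHF, with a median of 18.2, and 12 of 15 10y-MMVD-CHF dogs were below the 10y-noCHF median (unadjusted edgeR p = 0.0586, FDR = 0.797). CHST3 and CHST11, sulfotransferases for the main chondroitin sulfate positions, had ratios of 1.03-fold (95% interval 0.938 to 1.12) and 1.08-fold (95% interval 0.884 to 1.32). DSE, the epimerase that turns chondroitin into dermatan sulfate, had a ratio of 1.02-fold (95% interval 0.889 to 1.16). UGDH, which makes the UDP-glucuronic acid used for all of these chains and for hyaluronan, had a ratio of 1.04-fold (95% interval 0.92 to 1.18). XYLT1 and XYLT2, which attach the first sugar to the core protein, had ratios of 1.1-fold (95% interval 0.845 to 1.42) and 1.05-fold (95% interval 0.906 to 1.23).

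Of the 10 heparan sulfate proteoglycans, 5 were higher and 5 lower, and GPC3 alone had an unadjusted p below 0.05. GPC3 (glypican-3), a lipid-anchored proteoglycan encoded on the X chromosome, had 0.732 to 8.32 CPM in 10y-noCHF, with a median of 3.88, and 1.04 to 4.84 CPM in 10y-MMVD-CHF, with a median of 2.94. The ranges overlapped, and 13 of 15 10y-MMVD-CHF dogs were below the 10y-noCHF median. The fitted ratio was 0.609-fold (95% interval 0.433 to 0.856) (log2 fold change -0.72, standard error 0.242, edgeR FDR = 0.485, unadjusted p = 0.00554), which did not pass the correction for all features. GPC3 was a low gene, with 42 to 478 counts per dog, on a feature of 440865 bases that includes its introns (chromosome X, 105234399 to 105675263, canFam4). Leaving out each dog in turn gave log2 fold changes from -0.79 to -0.62, and an unadjusted p below 0.05 in all 34 fits. The change was -0.63 in females and -0.79 in males, with unadjusted edgeR p of 0.0566 and 0.0402.

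GPC4, the neighbour of GPC3, lay on the other side of 0, with 25.6 to 52 CPM in 10y-noCHF, with a median of 32.4, and 29.7 to 49.5 CPM in 10y-MMVD-CHF, with a median of 38.5 (log2 fold change 0.15, standard error 0.0759, edgeR FDR = 0.797). A total of 12 of the 15 dogs with CHF exceeded the 10y-noCHF median of GPC4. GPC6 had a log2 fold change of -0.39 and GPC1 of -0.051, with edgeR FDR values of 0.812 and 0.972. HSPG2 (perlecan), the large proteoglycan of basement membranes, had 345 to 796 CPM in 10y-noCHF, with a median of 465.7, and 359 to 964 CPM in 10y-MMVD-CHF, with a median of 545 (log2 fold change 0.13, standard error 0.133, edgeR FDR = 0.934). AGRN (agrin), another basement membrane proteoglycan, had 41.7 to 98.2 CPM in 10y-noCHF, with a median of 59.1, and 38.4 to 127 CPM in 10y-MMVD-CHF, with a median of 63.9 (log2 fold change 0.091, standard error 0.116, edgeR FDR = 0.951). The cell-surface syndecans SDC1, SDC2, SDC3 and SDC4 had log2 fold changes of -0.062, -0.08, 0.036 and 0.05, with edgeR FDR values from 0.921 to 0.982. The SDC4 feature shares 48.1% of its bases with that of the pseudogene SDC4P, and the GPC1 feature lies wholly within that of DUSP28.

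PRG4 (lubricin), a mucin-like proteoglycan that lubricates surfaces, had 183 to 1669 CPM in 10y-noCHF, with a median of 547, and 256 to 1426 CPM in 10y-MMVD-CHF, with a median of 336 (log2 fold change -0.40, standard error 0.292, edgeR FDR = 0.876). The 10y-MMVD-CHF values gathered low, with 11 of 15 dogs below the 10y-noCHF median, but the spread over all dogs was 9.11-fold and the interval of the ratio ran from 0.503 to 1.14. One 10y-MMVD-CHF male, CAV1097, had 1426 CPM. The PRG4 feature shares 17.2% of its bases with that of TPR.

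KERA, CHST15 and GPC4 were singled out above after their values were seen, as the members other than DCN with an unadjusted p between 0.05 and 0.06.

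A list of 85 other genes of these pathways was examined beside the members, of which 83 had a feature and 80 were tested. None had an edgeR FDR below 0.1, 5 had an unadjusted p below 0.05, or 6.25% beside the 6.31% of all features, and 38 had a fold change above 1 and 42 below 1 for CHF. Their median on the log2 scale was -0.0079. The 5 genes had log2 fold changes below 0. COL18A1 codes for a collagen of basement membranes that carries heparan sulfate. COL18A1 had 34.1 to 144 CPM in 10y-noCHF, with a median of 61.6, and 27.7 to 60.7 CPM in 10y-MMVD-CHF, with a median of 48.3 (log2 fold change -0.56, standard error 0.148, edgeR FDR = 0.303). Each of the 15 dogs with CHF had less COL18A1 than the median dog without CHF, and DESeq2 called it at an FDR of 0.0624. The study, which used DESeq2 on the same dogs, lists COL18A1 among its differentially expressed genes, so this call is not a separate observation. UAP1 makes the UDP-N-acetylglucosamine used for hyaluronan and heparan sulfate. UAP1 had 68.3 to 94 CPM in 10y-noCHF, with a median of 79.7, and 52.9 to 87.2 CPM in 10y-MMVD-CHF, with a median of 71.6 (log2 fold change -0.17, standard error 0.0534, edgeR FDR = 0.453). Also below 0.05, and named after their values were seen, were NDST3, an enzyme of heparan sulfate sulfation, CEMIP2, a relative of CEMIP, and GALNS, a lysosomal sulfatase, with log2 fold changes of -0.60, -0.25 and -0.22. Of the 20 genes of heparan sulfate synthesis and editing, 10 were higher and 10 lower. Of the 12 genes of lysosomal breakdown, 5 were higher and 7 lower.

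Markers of other cell types were compared between the groups in the same fit, and none was called. Of 20 cardiomyocyte markers, 18 were higher in 10y-MMVD-CHF, with summed levels of 614 to 33181 CPM in 10y-noCHF and 665 to 68257 CPM in 10y-MMVD-CHF. All 5 adipocyte markers were lower, with summed medians of 24.7 CPM in 10y-noCHF and 7.51 CPM in 10y-MMVD-CHF. Of the 9 valve interstitial cell markers 5 were lower, and all 6 tested of 8 red blood cell markers were higher. Of 6 smooth muscle markers 4 were lower, of 8 macrophage markers 7 were higher, of 10 endothelial markers 7 were higher, and of 6 chondrocyte markers 4 were lower. With the mean of the cardiomyocyte markers as a covariate, the log2 fold changes of GPC3 and CEMIP were -0.69 and -0.81. The same covariate brought some others closer to 0, with -0.10 for ACAN, -0.22 for PRG4, -0.081 for PRELP and -0.03 for LUM, and BGN at 0.018 on the other side of 0. It moved VCAN, EPYC, XYLT1 and AGRN away from 0, from 0.24, 0.15, 0.13 and 0.091 to 0.28, 0.19, 0.17 and 0.11. The part of the other cell types in the differences above was not tested.

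Between the sexes, no member had an edgeR FDR below 0.1, against 0.143% of all features, and DESeq2 (0.189% of all features) and limma voom (0.153%) called none either. One member, EPYC, had an unadjusted p below 0.05, beside 2.98% of all features. EPYC (epiphycan), a small leucine-rich proteoglycan known from growth cartilage, had 9.9 to 77.6 CPM in 16 females, with a median of 25.6, and 6.25 to 47.8 CPM in 18 males, with a median of 13.9 (log2 fold change of males over females -0.76, standard error 0.284, unadjusted p = 0.0112, edgeR FDR = 1). The sexes overlapped, and the unadjusted p stayed below 0.05 in all 34 fits that left out 1 dog. By CHF status, EPYC had 6.25 to 59.4 CPM in 10y-noCHF, with a median of 23.2, and 7.79 to 77.6 CPM in 10y-MMVD-CHF, with a median of 19.9. In all, 34 members were higher in males and 13 in females, beside 49% of all features higher in males. The median log2 fold change of the members was 0.053. Many members varied together across dogs, so the 34 are not separate observations. The X-linked members BGN, GPC3 and GPC4 had log2 fold changes of males over females of 0.088, -0.28 and 0.092, with unadjusted edgeR p of 0.594, 0.253 and 0.235.

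Whether the CHF difference itself depended on sex was tested as an interaction. EdgeR called no member and 0% of all features, limma voom called no member and 0%, and DESeq2 called no member and 0.0153%. XYLT1, AGRN and HSPG2 had an unadjusted p below 0.05, or 6.38% of the members, close to the 6.02% of all features. In 35 of the 47 members the CHF difference was lower in males than in females, beside 50.6% of all features. Members varied together across dogs, with r above 0 in 73.9% of their pairs, so the 35 are not separate observations. XYLT1, the enzyme that starts the chains, had 7.46 to 23.1 CPM (median 14.1) in 10y-noCHF females and 13.7 to 32.1 CPM (median 25.2) in 10y-MMVD-CHF females. In males it had 10.1 to 28.9 CPM (median 19.2) without CHF and 6.93 to 23 CPM (median 18.6) with CHF. The CHF difference of XYLT1 in males minus that in females was -1.02 on the log2 scale (standard error 0.332, unadjusted p = 0.00439, edgeR FDR = 0.815). On its human-derived feature, which spans the introns and holds 151950 counts against 38457 on the exons, it was -0.52 (unadjusted p = 0.0307).

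For AGRN, 10y-noCHF females had 52.1 to 78.9 CPM (median 58.4) and 10y-MMVD-CHF females 48.6 to 127 CPM (median 76.2), while males had 41.7 to 98.2 CPM (median 64) and 38.4 to 68 CPM (median 59.7). The difference between the sexes was -0.60 (standard error 0.214, unadjusted p = 0.00869, edgeR FDR = 0.815). For HSPG2, females had 353 to 773 CPM (median 442) without CHF and 529 to 964 CPM (median 656) with CHF, and males 345 to 796 CPM (median 522) and 359 to 734 CPM (median 462) (difference -0.64, standard error 0.249, unadjusted p = 0.015, edgeR FDR = 0.815). The medians of all 3 genes, which were picked by this p, were higher with CHF in females and lower in males, and all 4 groups of status and sex overlapped in each. The 3 genes also varied together across dogs within these groups, with r of 0.676 for AGRN and HSPG2, 0.706 for AGRN and XYLT1 and 0.487 for HSPG2 and XYLT1, so they are not separate observations of this pattern. The 10y-MMVD-CHF female CAV1519 had the highest value of its group for all 3. Without this dog the differences were -0.92 for XYLT1, -0.41 for AGRN and -0.51 for HSPG2, with unadjusted edgeR p of 0.0114, 0.0445 and 0.0502.

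**Figure D3:**
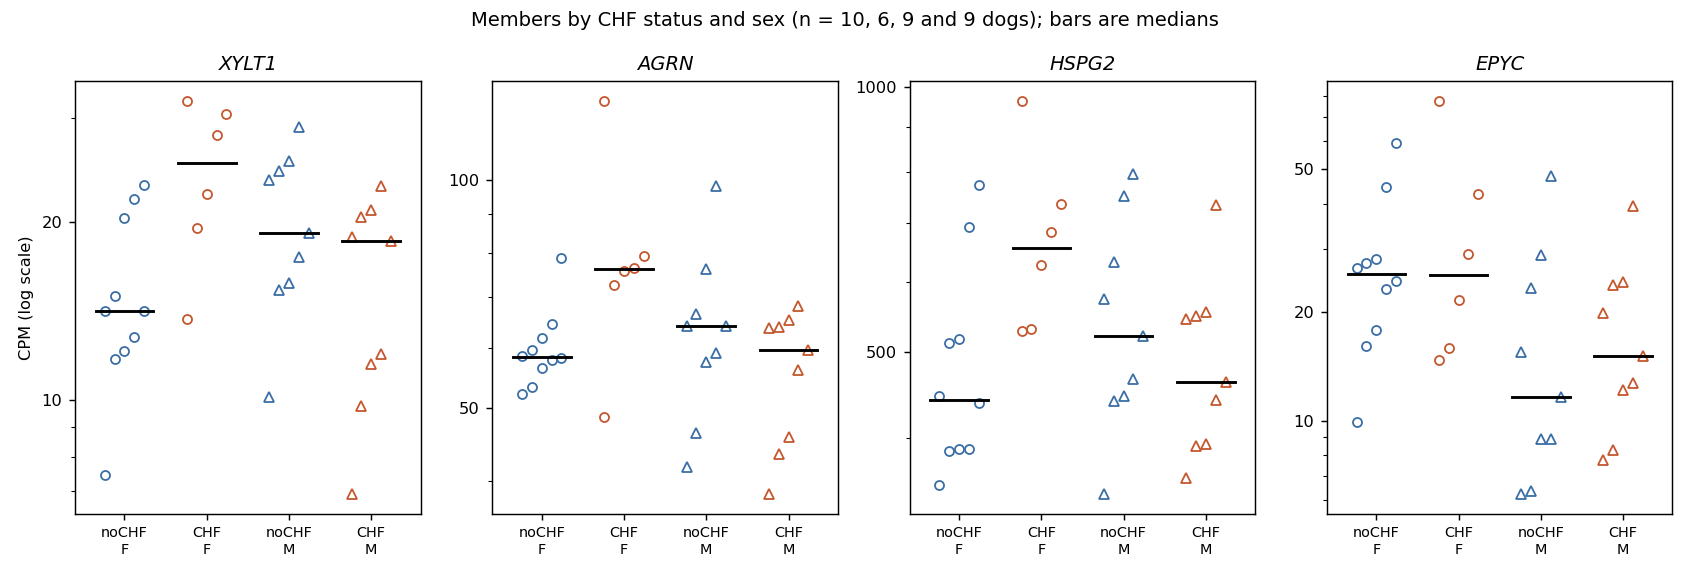
CPM in each dog (y axis, log scale) of XYLT1, AGRN, HSPG2 and EPYC by CHF status and sex, with 10 and 6 females (circles) and 9 and 9 males (triangles) without and with CHF. Bars are medians. For XYLT1, AGRN and HSPG2 the median of females with CHF is the highest of the 4, and for EPYC both medians of females lie above those of males.

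The members differed in how much they varied between dogs of 1 group. On the log2 scale the SD within status and sex ran from 0.151 for HAS3 to 1.02 for CEMIP. The enzymes B4GALT7, CHST3 and CSGALNACT2 varied 1.67-fold, 1.68-fold and 1.72-fold from the lowest to the highest of all dogs. At the other end stood EPYC (12.4-fold), CEMIP (11.6-fold), GPC3 (11.4-fold), OGN (10.6-fold), HAPLN1 (10.1-fold), ACAN (9.15-fold) and PRG4 (9.11-fold).

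Part of this spread went with the amount of cardiomyocyte transcripts in the sample. The mean log2 CPM of the 20 markers ranged from 0.475 in CAV749 to 10.9 in CAV1047. Correlations with it were computed over the 34 dogs after removal of the means of status and sex, with 100000 permutations within status and sex, two-sided, and p-values adjusted over the 47 members. A total of 24 members passed an adjusted p of 0.05 with Pearson's r, 22 of them falling and 2 rising with the marker mean, and 23 of the 24 passed with Spearman's rho as well. In all, 38 of 47 members had r below 0, and 16 had r below -0.5, beside 56.6% and 9.96% of all features. EPYC alone had r above 0.5, beside 13.8% of all features, so close relations with the markers were common outside the members too. Of the 22 that fell, 21 had r below 0 in each group taken alone. PRG4 was the exception in sign, with -0.694 in 10y-noCHF and 0.0462 in 10y-MMVD-CHF. The size of r also differed, with -0.74 and -0.242 for ACAN and -0.722 and -0.381 for LUM in these groups. For CHST11 the relation was closer in 10y-MMVD-CHF, at -0.205 and -0.732. Whether r differs between the groups was not tested.

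By Pearson's r the closest relation was that of SDC4, with r = -0.696 (adjusted permutation p = 0.000235) and rho = -0.732 (adjusted p = 0.000235), and by rho that of CHPF2, at -0.763. Here 0.000235 is the smallest adjusted value these permutations can give for these 2 members. BGN had r = -0.67 (adjusted permutation p = 0.00047) and rho = -0.72 (adjusted p = 0.00047), and LUM had r = -0.588 (adjusted permutation p = 0.00358) and rho = -0.599 (adjusted p = 0.00324). VCAN, ACAN and HAPLN1 had r of -0.492, -0.565 and -0.572, with adjusted permutation p of 0.0108, 0.00556 and 0.00556. When the 2 dogs with the most extreme marker means were dropped, r was -0.642 for SDC4, -0.694 for BGN, -0.632 for LUM and -0.475 for VCAN. EPYC and OMD ran the other way. EPYC had r = 0.631 (adjusted permutation p = 0.0031) and rho = 0.692 (adjusted p = 0.00047), and r was 0.765 within 10y-noCHF, 0.425 within 10y-MMVD-CHF and 0.638 without those 2 dogs. OMD had r = 0.479 (adjusted permutation p = 0.0186) and rho = 0.514 (adjusted p = 0.00858), and 0.239 and 0.768 within the groups. The counts of OMD can include reads of CENPP, whose feature holds it. CEMIP and GPC3 had r of -0.29 and -0.225, with adjusted permutation p of 0.191 and 0.343. CPM are shares of a library, and over all features the median r was -0.072, against -0.38 over the members.

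**Figure D4:**
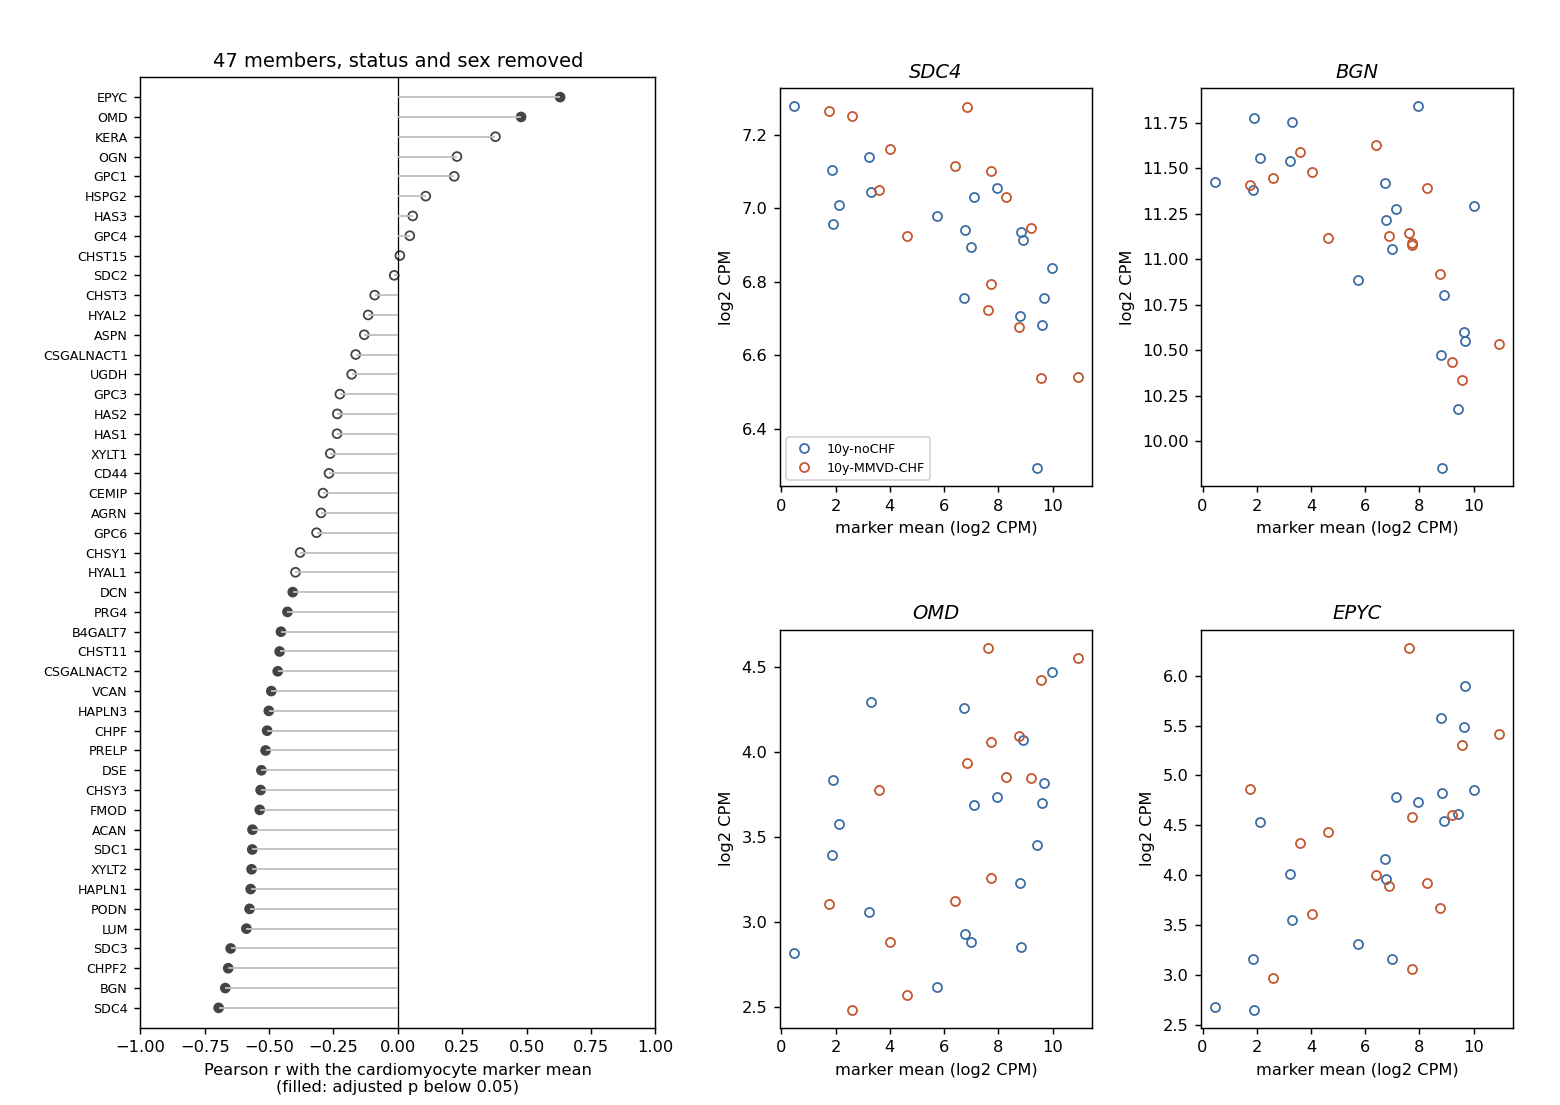
Left, Pearson r of each of the 47 members (y axis) with the mean log2 CPM of 20 cardiomyocyte markers over 34 dogs after removal of the means of status and sex, filled where the adjusted p is below 0.05. Right, log2 CPM of SDC4, BGN, OMD and EPYC against the marker mean in each dog (blue 10y-noCHF, orange 10y-MMVD-CHF), before that removal. SDC4 and BGN have r below 0 and OMD and EPYC r above 0 in both groups, weakest for OMD in 10y-noCHF (0.239).

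Pairs of members that are neighbours in the genome or act together were compared in the same way. Of 24 pairs listed, 23 could be tested, and 13 had an adjusted permutation p below 0.05 over the 23 pairs, all with r above 0. Positive correlation was common among the members, since 73.9% of all 1081 pairs of tested members had r above 0, and 27.1% had r of at least 0.444, the lowest r among the 13, beside 56.5% of the listed pairs. With the marker mean removed, 27.8% of all pairs reached 0.37, the lowest value of the 13. With permutation p-values of 1e-05 at the smallest, the adjusted value cannot fall below 0.000115 for the 2 pairs that reached it. The same 13 pairs passed when the cardiomyocyte marker mean was removed as well. The features of the neighbours named here do not overlap each other, and the gap between them is given beside each pair.

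The tightest pair was FMOD and PRELP, which lie 86.2 kb apart on chromosome 38 (FMOD at 699364 to 709433 and PRELP at 795638 to 809804, canFam4) on opposite strands, with r = 0.926 (adjusted permutation p = 0.000115, rho = 0.926, its adjusted p = 0.000115). The value was 0.908 after the 2 dogs most extreme for the first gene were dropped and 0.899 with the marker mean removed (adjusted permutation p = 0.000115). LUM and FMOD, on chromosomes 15 and 38, had r = 0.812 (adjusted permutation p = 0.000115, rho = 0.813, its adjusted p = 0.000115), so the closeness of these collagen-binding members was not limited to neighbours.

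On chromosome 15, EPYC, KERA, LUM and DCN lie in a row from 31976191 to 32182934, all on the minus strand. DCN and LUM, 33.8 kb apart, had r = 0.721 (adjusted permutation p = 0.000153, rho = 0.616, its adjusted p = 0.00122). KERA and EPYC, 45.2 kb apart, had r = 0.611 (adjusted permutation p = 0.00141, rho = 0.596, its adjusted p = 0.00198). Between these pairs, LUM and KERA, 34.6 kb apart, had r = -0.0669 (adjusted permutation p = 0.755, rho = -0.0924, its adjusted p = 0.685). With the marker mean removed, r of LUM and KERA was 0.209. Among the other pairs of the row, which were looked at after the results were seen, DCN had r of 0.277 with KERA and 0.0454 with EPYC, and 0.511 and 0.427 with the marker mean removed. ASPN, OMD and OGN lie in a row on chromosome 1 from 99603594 to 99681593. The gap is 7.27 kb for OGN and OMD, 18.5 kb for OMD and ASPN and 34.3 kb for OGN and ASPN. The pairs of these genes had r of 0.555 to 0.662, with adjusted permutation p of 0.00312 or less. All of them lie within the CENPP feature, so reads of CENPP can count for each, and its part in these r was not tested.

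VCAN and HAPLN1, 49.3 kb apart on chromosome 3, had r = 0.593 (adjusted permutation p = 0.00181, rho = 0.508, its adjusted p = 0.00935). The value was 0.567 after the 2 dogs most extreme for the first gene were dropped and 0.436 with the marker mean removed (adjusted permutation p = 0.0403). ACAN and HAPLN3, also neighbours on chromosome 3 and 2.44 kb apart, had r = 0.325 (adjusted permutation p = 0.0969, rho = 0.379, its adjusted p = 0.0627). HYAL1 and HYAL2, 3.07 kb apart on chromosome 20, had r = 0.352 (adjusted permutation p = 0.0537, rho = 0.446, its adjusted p = 0.0207). GPC3 and GPC4, 98.1 kb apart on the X chromosome, had r = -0.0224 (adjusted permutation p = 0.912, rho = -0.015, its adjusted p = 0.974). Distance alone did not order the pairs, since the closest neighbours did not pass with Pearson's r.

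Of the paralogous enzymes, the 4 pairs of chain synthesis passed with Pearson's r, and HYAL1 and HYAL2 did not. CHSY1 and CHSY3 had r = 0.639 (adjusted permutation p = 0.000368, rho = 0.525, its adjusted p = 0.00672), and CHPF and CHPF2, which assist them, had r = 0.574 (adjusted permutation p = 0.00131, rho = 0.665, its adjusted p = 0.00069). XYLT1 and XYLT2 had r = 0.519 (adjusted permutation p = 0.00349, rho = 0.608, its adjusted p = 0.00122). CSGALNACT1 and CSGALNACT2, which add the first sugar of the chondroitin chain, had r = 0.444 (adjusted permutation p = 0.0334, rho = 0.307, its adjusted p = 0.131), so this pair passed with Pearson's r only. HAS2 was tested with UGDH, CD44, VCAN and HAPLN1, the enzyme that supplies it and the proteins that bind its product, and r ran from 0.2 to 0.332 with adjusted permutation p from 0.12 to 0.34. BGN and DCN had r = 0.528 (adjusted permutation p = 0.00312, rho = 0.503, its adjusted p = 0.00853), and SDC2 and SDC4 had r = 0.0804 (adjusted permutation p = 0.716, rho = 0.00601, its adjusted p = 0.974). HYAL2 and CEMIP, both of hyaluronan breakdown, had r = 0.347 (adjusted permutation p = 0.0727, rho = 0.373, its adjusted p = 0.0627).

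**Figure D5:**
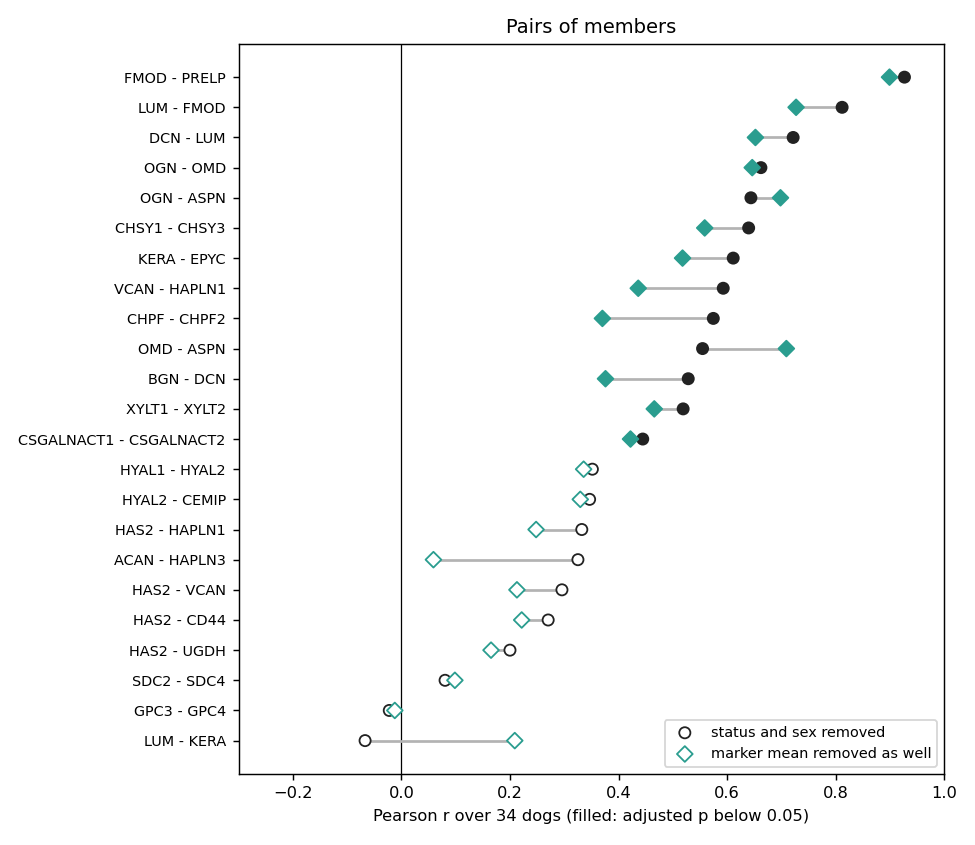
Pearson r over 34 dogs (x axis) of the 23 tested pairs of members, after removal of the means of status and sex (circles) and of the cardiomyocyte marker mean as well (diamonds), filled where the adjusted permutation p is below 0.05. FMOD and PRELP are highest at 0.926, and the pairs of HAS2 are all unfilled.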

How the data were processed

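RNA of mitral valves from 34 Cavalier King Charles Spaniels (19 10y-noCHF and 15 10y-MMVD-CHF dogs) was isolated with a fibrous-tissue kit, poly-A selected and sequenced as paired-end reads of 150 bases. Per the labels and the paper, reads were checked with FastQC and aligned to canFam4 with STAR, whose version is not given in the sources used here. The deposited table holds raw counts per gene made by the authors with featureCounts 2.0.3. Per the file headers, the reads of a pair were counted separately, a read was counted on every feature it overlaps, and no strand was used, so a total is a sum of assignments. The 23768 features are 2165 canine RefSeq genes and 21603 human XenoRefSeq alignments, most of which span introns. Groups and sex come from the sample labels, and 1 column that matches no sample was not used. No pair of libraries was alike within sampling noise (561 pairs). Each dog is 1 sample.

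Features with 100 counts or more over all dogs were tested in edgeR 4.0.16 (R 4.3.3) with TMM scaling and the quasi-likelihood test, CHF status plus sex over all dogs, and an interaction term in a separate fit, at an FDR of 0.1 by Benjamini-Hochberg over all 19568 features. The design follows the fixed effects of the study, which used DESeq2. DESeq2 1.42.0 and limma 3.58.1 voom, other scalings and filters, a marker covariate, fits within a sex and leaving out dogs were tried. Counting unadjusted p-values under the alternatives, and the fits without each dog for EPYC, XYLT1, AGRN and HSPG2, were chosen after seeing the data. Correlations used log2 CPM with a prior count of 2, after removal of group and sex means. Full values are given for members with an unadjusted p below 0.05 in any contrast, the 10 with the highest level per length, and VCAN, ACAN, BGN, DCN, HAS2, CD44, HSPG2 and PRG4. Other pathway genes are named where called or with an unadjusted p below 0.01 for CHF. Members, marker lists, pairs and other pathway genes were chosen with earlier results of these data known. Fits and correlations were tested on simulated data. Total counts were 46185256 to 82361245 per dog.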

Additional observations from a re-analysis of the deposited data

Results flagged for a closer look

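Within the 4 groups of status and sex, the highest or the lowest dog of a member was set against Dixon's critical value. The measure was the gap to the nearest dog divided by the range of the group, both on the log2 scale. The levels printed beside these ratios are CPM, so the ratios cannot be read from them directly. Of 188 such groups 18 were past it, where chance gives about 1 in 20, or 9.4. All genes of a dog come from the same library, so the 18 are not independent.

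The 10y-MMVD-CHF female CAV1047, which had the highest cardiomyocyte marker mean of all dogs, was past the critical value as the lowest of its 6 for 7 members. Its gap was 0.694 of the range for HAPLN3, 0.776 for HAS2, 0.743 for HYAL2, 0.676 for CHPF2, 0.737 for CSGALNACT1, 0.642 for UGDH and 0.757 for DSE. HAS2 stood at 12.5 CPM in this dog and at 26.2 CPM in the next female. CSGALNACT1 was at 20.4 CPM beside 46.7 CPM.

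The 10y-MMVD-CHF male CAV648 was past the value for 4 members. It was lowest for LUM, at 2111 beside 3067 CPM in the next male (0.498 of the range), and for GPC3, at 1.04 beside 2.01 CPM (0.514). It was highest for HYAL2, at 87.9 beside 49.1 CPM (0.505), and for CHST3, at 87.2 beside 68.6 CPM (0.527).

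The remaining dogs were past it for 1 member each. Among 10y-MMVD-CHF females, CAV1876 was lowest for GPC3 at 1.05 CPM (0.671) and CAV1519 highest for HAS3 at 15.4 CPM (0.667). Among 10y-MMVD-CHF males, CAV373 was lowest for CHPF2 at 21.7 CPM (0.551) and CAV1097 highest for PRG4 at 1426 beside 624.7 CPM (0.496). Among 10y-noCHF dogs, the male CAV285 was lowest for CHST11 at 7.58 CPM (0.559), the female CAV748 lowest for DSE at 47.2 CPM (0.585) and the female CAV1041 highest for AGRN at 78.9 CPM (0.484). Without CAV1097 the log2 fold change of PRG4 for CHF was -0.61.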

How the results depend on the processing

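No member was called for CHF, sex or their interaction under any alternative planned for it. For CHF, 0 were called in each of the 34 fits that left out 1 dog. The number of members with an unadjusted p below 0.05 for CHF ran from 2 to 5 over the other settings, against 2, and was 4 with DESeq2, 5 with upper-quartile scaling, 4 without the sex term and 4 in females alone. It ran from 2 to 6 with 1 dog left out, with 6 without CAV1097 or CAV865, 5 without CAV1876, CAV579 or CAV743, and 4 without CAV1041, CAV1049, CAV1114, CAV1790, CAV373, CAV487, CAV488, CAV576 or CAV748. GPC3 had an unadjusted p below 0.05 in 11 of 12 alternatives and CEMIP in 10, with log2 fold changes of -0.79 to -0.63 and -0.85 to -0.72. Among the other pathway genes 1 was called with DESeq2, COL18A1, against 0. Several log2 fold changes for CHF changed sign. In females alone they were 0.0030 for ACAN, 0.11 for BGN, 0.14 for CD44, 0.058 for FMOD, 0.053 for LUM, 0.032 for PODN and 0.11 for PRELP, and in males alone -0.19 for AGRN, -0.057 for HAS2, -0.17 for HSPG2 and -0.34 for XYLT1. BGN was at 0.018 with the marker covariate and 0.0047 without CAV1047, CD44 at 0.0049 without CAV1047, HAS2 at -0.0099 with upper-quartile scaling and -0.0072 without the sex term, and XYLT1 at -0.0023 on its human-derived feature. With 1 dog left out, the sign also changed for AGRN (-0.0029 without CAV1519), SDC3 (-0.018 without CAV1519), EPYC (-0.039 without CAV1876), HAPLN1 (0.023 without CAV1047) and, all within 0.12 of 0, HAS1, HAS2, HAS3, CHSY3 and DSE, and VCAN fell to 0.15 without CAV1519. The causes were not tested. With 1 dog left out, the sex difference of EPYC ran from -0.96 to -0.58, and the interaction from -1.13 to -0.91 for XYLT1, -0.70 to -0.41 for AGRN and -0.73 to -0.51 for HSPG2. Members related to the cardiomyocyte markers numbered 23 without the 2 farthest dogs and 24 on the log2(CPM + 1) scale, against 24. No paired analysis was possible because the labels give dogs of different groups no shared numbers. At counts as low as those of GPC3, HAS1 and OMD, the counting error adds to the spread between dogs. Features that span introns, and reads counted on each feature they overlap, limit levels and not only differences.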
